A study of Mus musculus with 6 samples.

Results

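Chemokines are small secreted proteins that steer leukocytes along gradients, and their receptors are G protein-coupled receptors on the cells that respond. Uterine RNA-seq of *Foxo1f/f* and *Foxo1d/d* mice was examined for this family. Members were chosen by symbol alone: the Ccl, Cxcl, Xcl and Cx3cl ligands with *Pf4* and *Ppbp*, the Ccr, Cxcr, Xcr and Cx3cr receptors, and the atypical receptors with *Ccrl1*, *Ccrl2* and *Cmklr1*. This gave 62 of the 23420 genes in the table, 40 ligands and 22 receptors.

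All mice were 8-week-old C57BL/6J females that had been mated with vasectomized males, and their uteri were collected at pseudopregnancy day (PPD) 4.5, when no embryo is present. The control mice carried the floxed *Foxo1* alleles without Cre (*Foxo1f/f*). The *Foxo1d/d* mice carried the same floxed alleles and Cre at the *Pgr* locus (PgrCre/+ Foxo1f/f). By the study's account this Cre acts in all compartments of the uterus from birth, and also in the pituitary, ovarian granulosa cells and the mammary gland, so the animals differ in more than the adult uterus. The study's staining still found FOXO1 in uterine blood vessels of *Foxo1d/d* mice. From this the study places the uterine ablation in epithelium and stroma. Each genotype was represented by 3 libraries, each from RNA pooled from 2 mice. The values used here are the authors' mean raw counts of each gene per genotype, so every value is a genotype mean without an SD. A library held on average 26125014 counts among the *Foxo1f/f* uteri and 27257963 among the *Foxo1d/d* uteri.

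Log2 ratios put *Foxo1d/d* over *Foxo1f/f*, after adding 1 to each mean count and scaling it to the total of its column. Folds of single genes are ratios of the scaled means without the pseudocount. The 95% counting interval is the exact (Clopper-Pearson) interval of the summed counts of the genotypes. It covers counting error only, and the spread between pools, which could be wider, was not measured. No p-value was computed. A gene was called higher or lower where its ratio passed 1.5-fold and its mean count over both genotypes was at least 10. Levels of different genes are compared per length, as CPM (counts scaled to a column total of 1000000) per kb of the longest RefSeq-matched transcript.

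The deleted gene was examined first. Mean counts of *Foxo1* were 3941 in controls and 1456 after deletion, and the log2 ratio was -1.50 (counting interval -1.55 to -1.45), in the direction of the labels. The floxed region covers 1 coding exon, so reads from the other exons can still be counted after deletion. The study also saw FOXO1 protein kept in uterine blood vessels. The source of the remaining counts was not tested. The uterine markers *Pgr*, *Esr1*, *Hoxa10* and *Hoxa11* had log2 ratios between -0.11 and 0.20. *Hoxa10* was the most abundant of them at 213 and 197 CPM per kb, and *Hoxa13* was near 0 in both genotypes with mean counts of 0.667 and 1.67.

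The ligands fall into the CC, CXC, XC and CX3C classes by the spacing of their first cysteines. Homeostatic ligands such as *Cxcl12* are made by stroma at all times, while inflammatory ligands such as *Cxcl9*, *Cxcl10* and *Ccl5* are induced by cytokines, mainly through NF-kB and IRF factors. The uterus of early pregnancy is rich in natural killer (NK) cells, macrophages and dendritic cells, which depend on these signals to enter and to position themselves. In the mouse decidua, stromal cells are known to silence ligand genes that would attract effector T cells.

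Of the 46 chemokine genes with enough counts, 37 had a log2 ratio above 0 and 9 below it, where 8649 of all 15696 genes lay above 0. Throughout, paired values give *Foxo1f/f* first and *Foxo1d/d* second. Of the 62 genes, 46 had a mean count of at least 10, 11 had fewer counts and 5 had no count. Among the 46, 16 were higher by over 1.5-fold and 0 were lower, where 5.43% of all 15696 genes with such a mean count were higher and 3.51% were lower. Over 2-fold, 6 members were higher and 0 lower, against 1.99% and 1.40% of all genes. The median log2 ratio of the 46 was 0.45, beside 0.02 for all genes. The 16 had folds between 1.53 and 3.53. For 2 of them, *Ccl22* and *Ccr7*, the mean count in *Foxo1f/f* was under 10, so that they passed the minimum through the genotype in which they were high.

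Counting error alone could not be separated from a difference for 11 of the 46, whose intervals held 0. The interval lay above 0 for 31 members and below 0 for 4, which are 67.4% and 8.70% of the 46, where the same shares over all genes were 36.4% and 27.1%. The 4 below 0 were *Cxcl12*, *Cxcr4*, *Ccl27a* and *Cmklr1*, of which the largest difference was a log2 ratio of -0.38. Ratios of low genes scatter more, so the members were also set beside genes of like abundance. Between mean counts of 10 and 100, 9 of 19 members were higher by over 1.5-fold, against 16.1% of all 2746 genes. From 100 to 1000 it was 6 of 22 members against 4.89% of 5847 genes. At 1000 or more it was 1 of 5 members, *Cxcl14*, against 1.75% of 7103 genes.

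**Figure D1:**
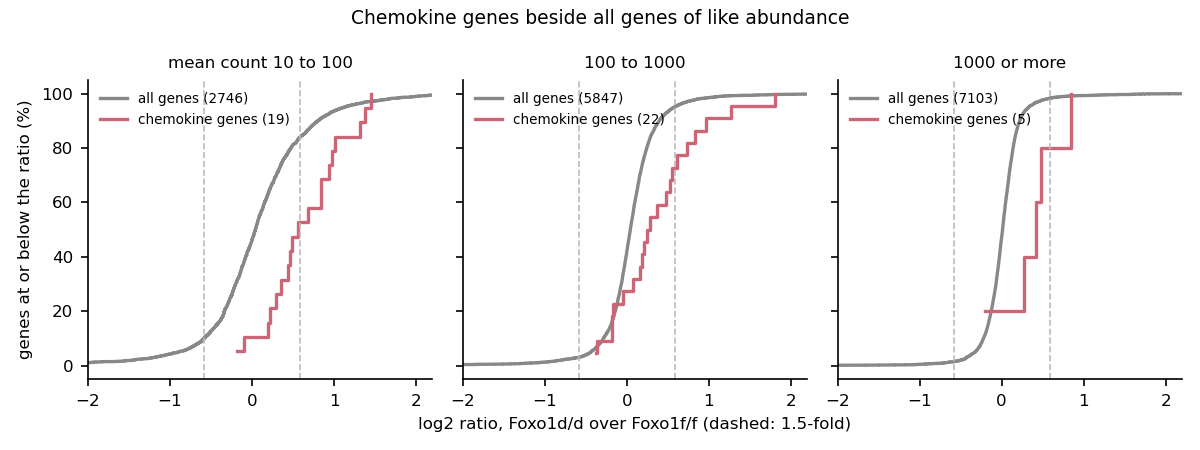
Share of genes (%) at or below each log2 ratio (*Foxo1d/d* to *Foxo1f/f*), in 3 classes of mean count, for all genes (grey) and for the chemokine ligands and receptors (red), with the number of genes in each legend; dashed lines mark 1.5-fold. The red steps lie to the right of the grey curve over most of each panel, and the member medians are 0.56, 0.26 and 0.42 beside 0.04, 0.04 and 0.01 for all genes.

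Among the 15 CC ligands with a mean count of at least 10, 4 were higher by over 1.5-fold, 0 were lower, and the median log2 ratio was 0.44. *Ccl28*, a ligand of mucosal epithelia that attracts plasma cells and T cells, had the highest ratio of the family. It had mean counts of 93.3 and 344, a 3.53-fold difference (log2 ratio 1.81, counting interval 1.63 to 2.02). *Ccl22*, made by dendritic cells and macrophages to attract CCR4+ T cells, was at 9 and 26 counts (log2 ratio 1.37), with a wide interval of 0.82 to 2.16. *Ccl5*, which activated T and NK cells release, had 71 and 146 counts (log2 ratio 0.97, counting interval 0.74 to 1.22). *Ccl7*, a monocyte attractant, stood at 50.7 and 103 counts (log2 ratio 0.94), with an interval that started at 0.67. None of these 4 was among the 10 most abundant members per length.

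The abundant CC ligands differed by less. *Ccl8*, a monocyte and T cell attractant that signals through CCR8 in the mouse, was the most abundant member per length, with 132 and 184 CPM per kb. Its mean counts of 1758 and 2568 put it 1.40-fold higher (log2 ratio 0.49, counting interval 0.43 to 0.54), a narrow interval short of 1.5-fold. *Ccl6*, a rodent ligand of CCR1, had 18.1 and 25.2 CPM per kb with a counting interval of 0.39 to 0.56 around its log2 ratio of 0.47. *Ccl9*, its close relative, had a log2 ratio of 0.29 from mean counts of 384 and 489, and *Ccl3*, another CCR1 ligand, one of 0.29 from 22 and 28.3, with an interval that held 0. The lower side was held by *Ccl27a*, a ligand of CCR10, whose mean counts were 321 and 258 (log2 ratio -0.38, counting interval -0.51 to -0.24). Its exons overlap those of *Il11ra1* on the opposite strand, a gene with mean counts of 2520 and 2790, and whether the counting used strand is not given in the sources used here, so its value is uncertain. *Ccl19*, a ligand of CCR7, was at 26.7 and 24.3 counts, with an interval from -0.67 to 0.28.

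**Figure D2:**
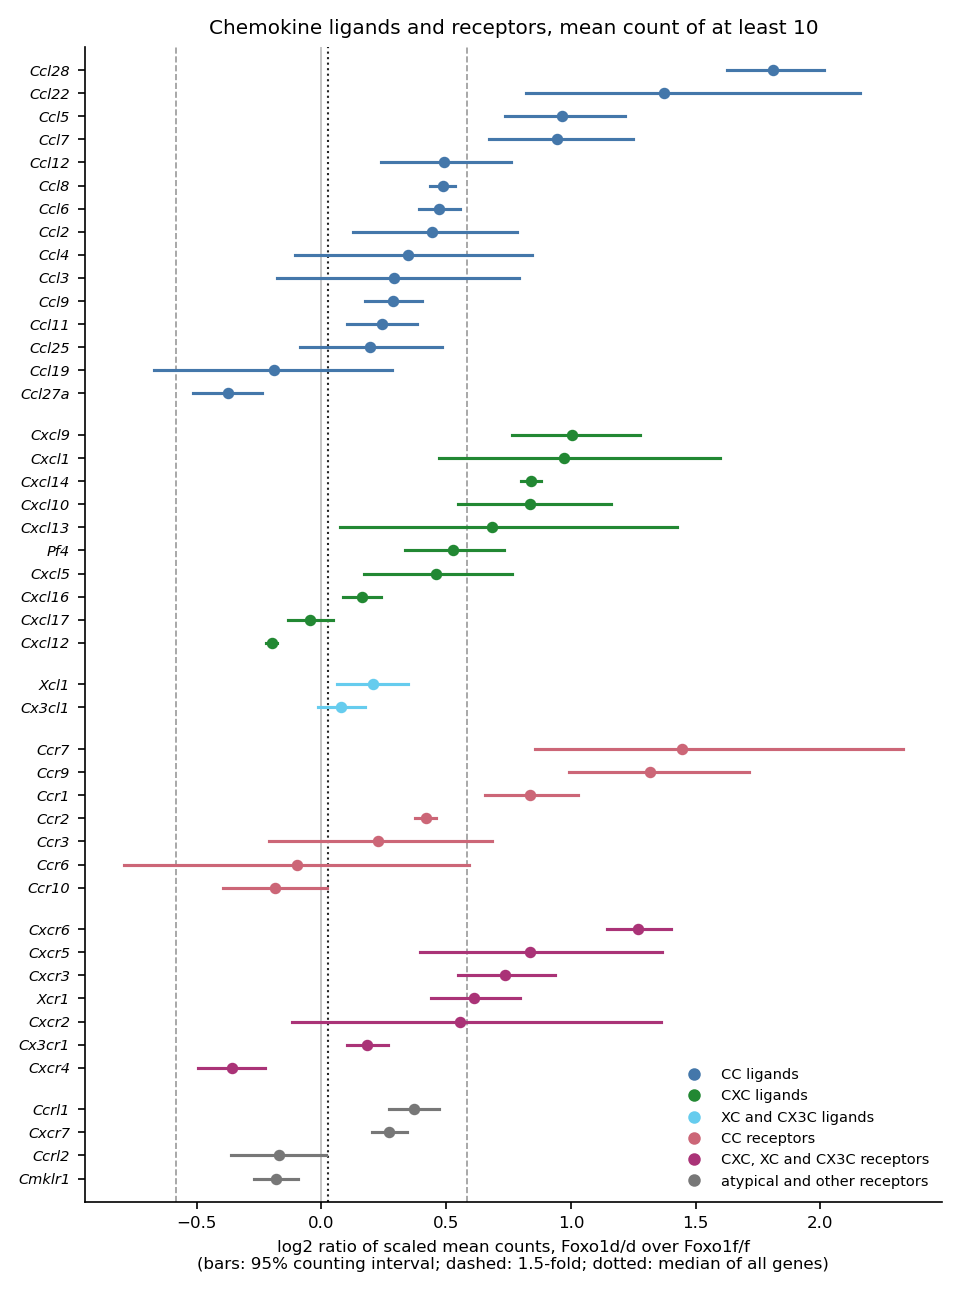
Log2 ratio (*Foxo1d/d* to *Foxo1f/f*) (points) with the 95% counting interval (bars) of 45 of the 46 ligands and receptors with a mean count of at least 10, coloured and grouped by role; dashed lines mark 1.5-fold and the dotted line the median of all genes, 0.02. The points run from -0.38 (*Ccl27a*) to 1.81 (*Ccl28*), and the 16 past the right dashed line are spread over CC and CXC ligands and receptors and *Xcr1*.

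Of the 10 CXC ligands with a mean count of at least 10, 5 were higher by over 1.5-fold and 0 were lower, with a median log2 ratio of 0.61. *Cxcl14*, an epithelial chemokine whose receptor is debated, combined a high level with a large difference. It stood at 55.8 and 100 CPM per kb, and mean counts of 2663 and 4978 put its log2 ratio at 0.84 (counting interval 0.80 to 0.88). Of the interferon-induced ligands of CXCR3, all low in level, *Cxcl9* and *Cxcl10* passed 1.5-fold. *Cxcl9* had mean counts of 62 and 131 (log2 ratio 1.01, counting interval 0.76 to 1.28). *Cxcl10* had 45.7 and 86 (log2 ratio 0.84, counting interval 0.55 to 1.16), and part of its sequence is also exonic in *Art3* on the opposite strand, which lay the other way, at 465 and 351. *Cxcl11*, annotated by RefSeq as a transcribed pseudogene in the mouse reference, had only 4.33 and 6 counts and an interval that held 0. *Cxcl1*, a neutrophil attractant, was at 13.7 and 29 counts (log2 ratio 0.97), and *Cxcl13*, which draws B cells into follicles, at 10.3 and 18 (log2 ratio 0.68, counting interval 0.08 to 1.43).

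*Cxcl12*, the stromal ligand that retains leukocytes and guides vessels, had the lowest ratio of the 10 CXC ligands with enough counts. By its longest transcript it was the next most abundant member after *Ccl8* in *Foxo1f/f*, at 85.1 CPM per kb, and stood after *Ccl8* and *Cxcl14* in *Foxo1d/d*, at 74.1. Mean counts of 12505 and 11359 put its log2 ratio at -0.20 (counting interval -0.22 to -0.18). Its transcripts range from 1878 to 5627 bases, and by the shortest it would be at 255 and 222 CPM per kb, above *Ccl8*. *Cxcl17*, a mucosal ligand, was level at 33.1 and 32.1 CPM per kb, with an interval from -0.14 to 0.05. *Cxcl16*, a membrane-bound ligand for CXCR6 that macrophages and dendritic cells carry, had mean counts of 862 and 1006 (log2 ratio 0.16, counting interval 0.09 to 0.24). Together, *Ccl8*, *Cxcl12* and *Cxcl14* held 64.3% of the summed ligand level per length in *Foxo1f/f* and 66.3% in *Foxo1d/d*, with 20.1% and 13.7% for *Cxcl12* and 13.2% and 18.5% for *Cxcl14*. These shares and the order of the ligands rest on the longest transcript of *Cxcl12*, since by its shortest it would be first in both genotypes and hold more of the sum. The summed level of all ligands was 424 and 541 CPM per kb.

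The remaining ligand classes hold 1 gene each in this table. *Xcl1*, which NK cells and T cells secrete to call cross-presenting dendritic cells, was abundant at 18.1 and 20.9 CPM per kb (log2 ratio 0.21, counting interval 0.06 to 0.35). *Cx3cl1*, a ligand anchored on endothelium and epithelium, had a log2 ratio of 0.08 with an interval that held 0.

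**Figure D3:**
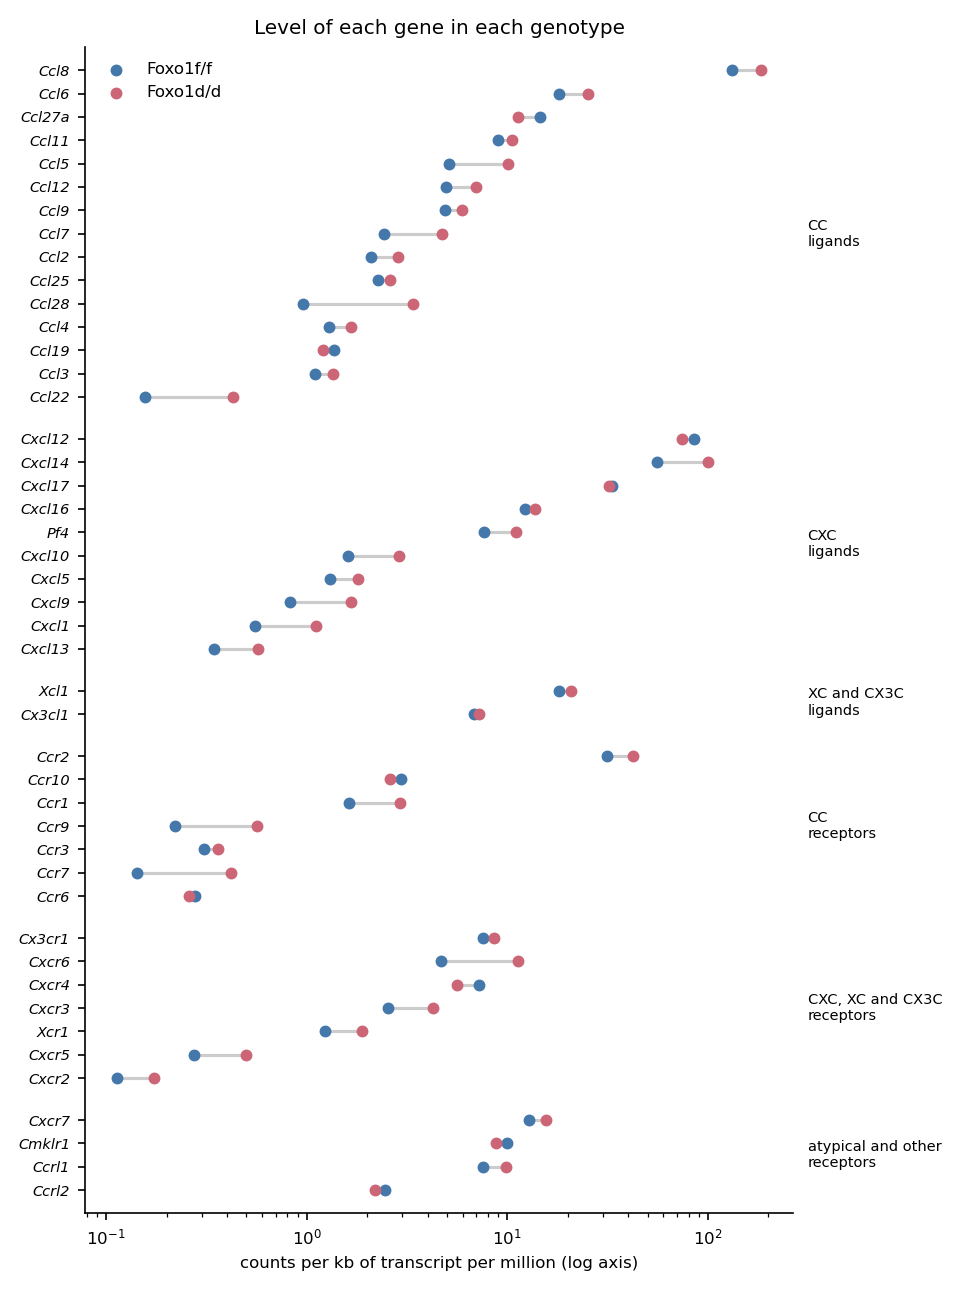
Level of 45 of the 46 genes in CPM per kb of transcript (log axis) in *Foxo1f/f* (blue) and *Foxo1d/d* (red), each point a genotype mean, grouped by role and ordered by level. *Ccl8* leads the ligands at 132 and 184 and *Ccr2* the receptors at 31.6 and 42.2, while *Ccl28*, *Ccl22*, *Ccr9* and *Ccr7* show the widest gaps from low starting levels.

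Receptors were lower in level than ligands, with sums of 97.2 and 123 CPM per kb. Of the 8 CC receptors with a mean count of at least 10, 3 were higher by over 1.5-fold and 0 were lower. *Ccr7*, which takes T cells and mature dendritic cells to lymph nodes, had mean counts of 7.33 and 22.7 (log2 ratio 1.44, counting interval 0.85 to 2.33). *Ccr9*, the receptor of gut- and thymus-homing T cells, had 30 and 79.7 (log2 ratio 1.32, counting interval 0.99 to 1.71). *Ccr1*, found on monocytes, macrophages and neutrophils, had 120 and 224 (log2 ratio 0.84, counting interval 0.65 to 1.03). All 3 are expressed at low levels per length, at or under 2.91 CPM per kb in *Foxo1d/d*.

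The CC receptor with the highest level was *Ccr2*, which brings inflammatory monocytes out of the blood. It had 31.6 and 42.2 CPM per kb, and mean counts of 2473 and 3446 (log2 ratio 0.42, counting interval 0.37 to 0.46), under 1.5-fold. *Ccr10*, the receptor of *Ccl28* and *Ccl27a*, had 133 and 122 counts and an interval from -0.40 to 0.02. The eosinophil receptor *Ccr3* had 26.3 and 32.3 counts, and *Ccr4*, the receptor of *Ccl22*, only 6.33 and 10.7.

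Of the 7 CXC, XC and CX3C receptors with a mean count of at least 10, 4 were higher by over 1.5-fold and 0 lower, and their median log2 ratio was 0.61. *Cxcr6*, carried by effector T cells, NKT cells and other innate lymphocytes, was the one of these 4 with the most counts behind it. Its mean counts were 231 and 582, a 2.42-fold difference (log2 ratio 1.27, counting interval 1.14 to 1.40). *Cxcr3*, on Th1 cells, cytotoxic T cells and NK cells, had 115 and 201 (log2 ratio 0.74, counting interval 0.55 to 0.94). *Cxcr5*, on B cells and follicular helper T cells, had 18.7 and 35.7 (log2 ratio 0.84, counting interval 0.39 to 1.37). The exons of *Cxcr5* overlap those of *Bcl9l* on the other strand, a gene with 2380 and 2833 counts. With the strand setting unknown, the value of *Cxcr5* is uncertain. *Xcr1*, which marks cross-presenting dendritic cells, was just past the threshold at 1.53-fold (143 and 229 counts, log2 ratio 0.61, counting interval 0.44 to 0.79). *Cxcr2*, the neutrophil receptor of *Cxcl1*, had 9 and 14.3 counts, a 1.53-fold ratio that fell short of 1.5-fold with the pseudocount and whose interval held 0. *Cxcr4*, the receptor of *Cxcl12*, was on the lower side like its ligand, at 341 and 277 counts (log2 ratio -0.36, counting interval -0.49 to -0.23).

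Atypical receptors bind chemokines without classical G protein signaling, and some of them remove chemokines from the tissue. *Ccrl2* and *Cmklr1* were grouped with them here. *Cxcr7*, now named *Ackr3*, scavenges *Cxcl12* and was the most abundant of them at 12.9 and 15.6 CPM per kb (log2 ratio 0.27, counting interval 0.20 to 0.34). *Ccrl1*, now *Ackr4*, had a log2 ratio of 0.37, and its exons overlap *Acad11* on the opposite strand. *Ccrl2* had one of -0.17 with an interval that held 0. *Cmklr1*, the receptor of chemerin rather than of a chemokine, had mean counts of 750 and 689 (log2 ratio -0.18, counting interval -0.27 to -0.10), and the chemerin gene *Rarres2* had 2614 and 2590 counts. Of these 4 receptors, 0 passed 1.5-fold. Some relatives stand in the table under older symbols that the choice by symbol did not take. *Darc* (*Ackr1*) had 307 and 315 counts and *Ccbp2* (*Ackr2*) 81.3 and 88.3, with intervals that held 0. *Il8*, the older symbol given there to mouse *Cxcl15*, had 313 and 634 (log2 ratio 0.96, counting interval 0.85 to 1.07).

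The 11 members with counts under the minimum had genotype means of at most 6.33 in *Foxo1f/f* and 10.7 in *Foxo1d/d*. *Cxcl2* had no count in *Foxo1f/f* and 7 summed counts in *Foxo1d/d*, at least 2.24-fold higher against a floor of 3 summed counts if the 7 are taken as exact, while its counting interval reached down to a log2 ratio of 0.47. *Ccl24* had 14 and 32 summed counts, a 2.19-fold ratio (log2 interval 0.18 to 2.15). The other 9 had intervals that held 0 at this depth. *Ccl21a*, *Ccl21b*, *Ccl21c*, *Ccl26* and *Ccl27b* were listed at 0 in both genotypes. Where reads that fit several copies were counted, this allows up to 0.0383 CPM in *Foxo1f/f* and 0.0367 in *Foxo1d/d*. *Ccl21b* shares 71.7% of its 50-base stretches with *Ccl21a*, and *Ccl27b* shares 61.4% with *Ccl27a*. Whether reads that fit both copies were counted is not given in the sources used here. If they were not, a listed 0 sets no upper limit for such copies. Of the CCR7 ligands, only *Ccl19* therefore had a measurable value.

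Receptors were then set beside their ligands. Of 41 pairs of a receptor and a ligand, 27 had a mean count of at least 10 on both sides, over 15 receptors. Both partners had ratios above 0 in 22 of these pairs, both below 0 in 2 and opposite signs in 3. Ligands that bind several receptors count more than once here. Taken singly, 14 of the 19 receptors and 23 of the 27 ligands with enough counts lay above 0. Of these receptors 7, and of these ligands 9, were higher by over 1.5-fold. Pairs of either kind would therefore also arise among unrelated members, and no share for unrelated partners was computed. In 5 pairs both partners were higher by over 1.5-fold: *Ccr1* with *Ccl5* and with *Ccl7*, *Cxcr3* with *Cxcl9* and with *Cxcl10*, and *Cxcr5* with *Cxcl13*. The last of these rests on the uncertain value of *Cxcr5*. The opposite pairs were *Ccr10* with *Ccl28*, *Ccr7* with *Ccl19* and *Cxcr7* with *Cxcl12*. For *Cxcr6* and *Ccr9*, whose log2 ratios were 1.27 and 1.32, the ligands *Cxcl16* and *Ccl25* had 0.16 and 0.19. The exons of these ligands overlap genes on the opposite strand, those of *Ccl25* (62.7 and 75 counts) the more abundant *Elavl1* (2275 and 2562) and those of *Cxcl16* *Zmynd15* (622 and 630), so with the strand setting unknown the ratio of *Ccl25* above all is uncertain. The pairs with both partners below 0 were *Cxcr4* with *Cxcl12* and *Ccr10* with *Ccl27a*.

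**Figure D4:**
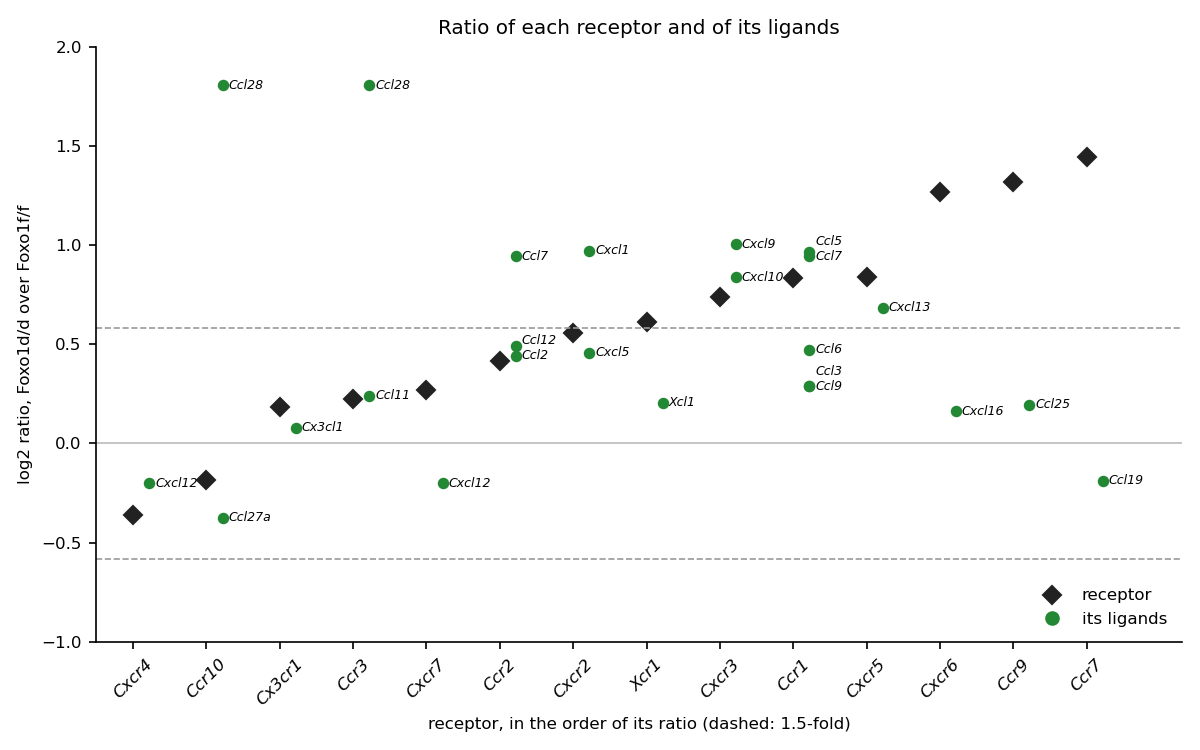
Log2 ratio (*Foxo1d/d* to *Foxo1f/f*) for 14 of the 15 receptors (diamonds, in the order of their ratio) and for their ligands (circles), where both partners had a mean count of at least 10; dashed lines mark 1.5-fold. At the right end, *Cxcr6*, *Ccr9* and *Ccr7*, the receptors with the highest ratios, lie between 1.27 and 1.44 and their ligands between -0.19 and 0.19. *Ccr1*, *Cxcr3* and *Cxcr5*, next below them, have ligands past 1.5-fold, though not all ligands of *Ccr1* are.

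Many members are neighbours in the genome (GRCm38.p6, positions from RefSeq). On chromosome 9, the receptor genes *Ccr9*, *Cxcr6*, *Xcr1*, *Ccr1*, *Ccr3* and *Ccr2* lie in a run and had log2 ratios between 0.23 and 1.32, of which the first 4 named were over 1.5-fold higher. *Fyco1*, a gene of that stretch outside the family, had a log2 ratio of -0.21, and the 22 genes other than members within 1 Mb of the stretch, *Fyco1* among them, had a median of 0.10, with 4 of 22 over 1.5-fold higher and 0 lower. On chromosome 11, the run from 82035577 to 82179812 holds *Ccl2*, *Ccl7*, *Ccl11*, *Ccl12*, *Ccl8* and *Ccl1*, and the 5 with enough counts lay between 0.24 and 0.94. The run from 83525778 to 83664683 holds *Ccl5*, *Ccl9*, *Ccl6*, *Ccl3* and *Ccl4*, between 0.29 and 0.97. *E230016K23Rik*, a gene outside the family within that run, had a log2 ratio of 0.98. Other genes within 1 Mb of these runs had medians of 0.05 (17 genes) and 0.02 (36 genes). On chromosome 4, *Ccl27a* and *Ccl19*, the members of that run with enough counts, were both below 0. On chromosome 5, *Cxcl5*, *Pf4* and *Cxcl1* lay between 0.46 and 0.97, with *Il8* in that run at 0.96. *Cxcl9* and *Cxcl10*, in another run there, had 1.01 and 0.84, with *Art3* inside it at -0.46. On chromosome 8, *Ccl22* and *Cx3cl1* had 1.37 and 0.08. Of 39 other genes within 1 Mb of that run, 6 were over 1.5-fold higher and 0 lower. Over all genes with enough counts, 5.43% were higher and 3.51% lower. Around the chromosome 4 run, 3 of 52 such neighbours were higher and 1 lower. On chromosome 11 it was 1 and 0 of 17, then 3 and 1 of 36, in the order of the runs above. On chromosome 5 it was 2 and 1 of 10, then 1 and 1 of 20.

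The promoters of members that lay higher were read for short motifs, since NF-kB and IRF factors are the textbook inducers of this family and FOXO1 is the deleted factor. RefSeq windows of the 250 bases before the transcript start were matched to 46 of the 62 genes and to 12 of the 16 that were over 1.5-fold higher. Some genes have several starts, so the 46 have 55 windows, and for 10 of them, *Cxcl14* among these, each start used lies inside the span of the gene and not at its outer end. A gene counts as holding a motif where any of its windows does. Both strands were searched for GTAAACA (FOXO), AANNGAAA (IRF) and the first 9 letters of the NF-kB consensus, GGGANTTNC, none of which contains another. GTAAACA was in the windows of 0 of the 46 genes, beside 3.54% of all 27025 genes with a window. AANNGAAA was in 13 (28.3%), beside 23.9% of all genes, and GGGANTTNC in 8 (17.4%), beside 4.11%. Among the 12, these counts were 0, 5 and 3. The 8 with the NF-kB letters were *Cxcl1*, *Cxcl2*, *Cxcl3*, *Cxcl9*, *Cxcl10*, *Cxcr2*, *Ccr3* and *Ccr6*. A match is a description of the letters and not a bound site, and its absence says nothing of binding elsewhere.

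The windows of 3 of the higher genes are shown 5′ to 3′ on the strand of the gene, ending at the base before the transcript start, as examples of an epithelial ligand, an interferon-induced ligand and a lymphocyte receptor, chosen after their values were seen. Capitals mark matches to any of the motifs. *Ccl28* lies on the plus strand at chr13:119623569-119623818, *Cxcl10* on the minus strand at chr5:92348890-92349139, and *Cxcr6* on the plus strand at chr9:123806227-123806476.
Ccl28: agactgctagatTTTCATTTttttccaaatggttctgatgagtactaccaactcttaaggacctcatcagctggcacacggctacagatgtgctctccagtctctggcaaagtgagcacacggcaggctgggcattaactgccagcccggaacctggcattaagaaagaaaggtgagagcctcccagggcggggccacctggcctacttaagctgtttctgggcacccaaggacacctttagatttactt
Cxcl10: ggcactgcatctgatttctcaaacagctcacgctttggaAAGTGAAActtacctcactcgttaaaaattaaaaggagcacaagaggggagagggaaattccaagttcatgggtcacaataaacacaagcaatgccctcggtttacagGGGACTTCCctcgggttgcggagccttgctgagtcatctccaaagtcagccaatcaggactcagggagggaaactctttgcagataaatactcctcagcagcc
Cxcr6: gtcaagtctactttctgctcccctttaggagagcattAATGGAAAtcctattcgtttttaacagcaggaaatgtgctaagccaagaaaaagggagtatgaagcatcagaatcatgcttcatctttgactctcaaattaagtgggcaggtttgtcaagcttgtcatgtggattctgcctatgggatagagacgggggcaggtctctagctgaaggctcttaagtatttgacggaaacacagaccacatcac
*Cxcl10* alone of these 3 had both an IRF match, 211 bases before the start, and an NF-kB match, 103 bases before it. *Ccl28* and *Cxcr6* each had 1 IRF match and 0 NF-kB matches.

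A list of 17 cytokine, receptor and signaling genes was examined as possible inducers of chemokine transcription. It was chosen with earlier results of these data known, and 16 of the genes had a mean count of at least 10. Of these, 6 were higher by over 1.5-fold and 1 was lower, beside 5.43% and 3.51% of all genes. Their median log2 ratio was 0.20. *Ifng*, *Tnf* and *Il1b* had mean counts between 10 and 100, where 16.1% of all genes were higher. *Il17rb*, a receptor for IL-25, was the most abundant per length in *Foxo1d/d* (230 CPM per kb), where *Tnfrsf1a* was in *Foxo1f/f* (90.1, beside 56.3 for *Il17rb*). It also had the highest ratio, with mean counts of 3030 and 12915 (log2 ratio 2.03). The cytokine genes *Ifng*, *Tnf*, *Il1b* and *Csf3* and the adaptor *Myd88* were the other 5. *Ifng*, the inducer of *Cxcl9* and *Cxcl10*, had 9 and 38.7 counts (log2 ratio 1.93, counting interval 1.43 to 2.70). Its mean in *Foxo1f/f* was under 10, so it passed the minimum through the genotype in which it was high. *Il1a* was the lower one, at 28.7 and 9.67 counts (log2 ratio -1.54), and it passed the minimum through *Foxo1f/f*.

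Below the receptors, Gi proteins, arrestins, kinases and Rac activators carry the signal. Of 30 such genes found from a list of 32, all had a mean count of at least 10. By over 1.5-fold, 2 were higher and 2 lower, beside 5.43% and 3.51% of all genes. The median log2 ratio was 0.06. *Gnai2*, the main Gi subunit of leukocytes, was the most abundant by the sum of both genotypes, at 189 and 191 CPM per kb (log2 ratio 0.02), with *Rgs2* above it in *Foxo1f/f* (195) and *Cdc42* in *Foxo1d/d* (195). *Dock2*, a Rac activator of leukocytes, was the highest at 287 and 663 counts (log2 ratio 1.14), and *Rgs1*, which shortens chemokine receptor signaling, the lowest at 386 and 180 (log2 ratio -1.16). Of 10 genes for binding partners and proteases outside the family, 0 were higher by over 1.5-fold and 1, *Gpr1*, a chemerin receptor, was lower (63.7 and 40 counts). *Mmp2*, a protease that can cleave chemokines, was the most abundant of them in *Foxo1f/f*, at 300 and 256 CPM per kb. *Cd74*, the receptor of the chemokine-like MIF, was the most abundant in *Foxo1d/d*, at 217 and 311, and had the highest log2 ratio, 0.52.

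Markers of most leukocyte types had ratios above 0, and those of mast cells below 0. In whole uterus, more cells of a type and more RNA per cell cannot be told apart. The 6 pan-leukocyte markers all lay above 0, between 0.35 and 0.53, with 0 of 6 over 1.5-fold. Their summed level was 347 and 463 CPM, a 1.33-fold difference, and *Cd52* was the most abundant at 60.7 and 80.5 CPM per kb. For comparison, the summed level of the 22 receptors was 290 and 370 CPM, 1.28-fold. That of the 40 ligands was 831 and 920 CPM, 1.11-fold, and without *Cxcl12* it was 353 and 503 CPM, 1.43-fold. Without both *Cxcl12* and *Cxcl14* it was 251 and 320 CPM, 1.28-fold. Of the 19 receptors with a mean count of at least 10, 9 had a log2 ratio above the range of the pan-leukocyte markers, 2 within it and 8 below it. Of the 27 ligands it was 9 above, 7 within and 11 below. The part of the leukocyte markers in the ratios of the chemokine genes was not tested.

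Summed levels of marker lists cover every gene found, those under the minimum count included. Beside the counts of markers called, 5.43% of all genes were higher and 3.51% lower by over 1.5-fold. T cell markers stood highest among the leukocyte lists with over 4 measured genes. Of 8, 7 were higher by over 1.5-fold, 0 lower, and the summed level was 42.0 and 68.7 CPM. *Lck* was the most abundant at 10.7 and 14.7 CPM per kb, and *Cd8a* had the highest ratio, with 30 and 123 counts (log2 ratio 1.94). Of 8 NK markers, 1 was higher, *Gzma* (18.0 and 29.8 CPM per kb), which was the most abundant in *Foxo1d/d*, while *Gzmb* was in *Foxo1f/f* (20.5), and the sum was 136 and 172 CPM. Of 10 macrophage markers found, 0 were over 1.5-fold, all lay above 0, and the sum was 800 and 960, led by *Lyz2* at 185 and 222 CPM per kb. Of 6 dendritic cell markers 2 were higher, with a sum of 62.8 and 82.6, *Zbtb46* as the most abundant in *Foxo1f/f* (6.39 CPM per kb) and *Cd209a* in *Foxo1d/d*, and *Flt3* with the highest ratio, 0.85. Of 4 monocyte markers with enough counts 2 were higher, *Ly6c2* with the highest ratio (42.7 and 140 counts), while *Plac8* held most of the sum of the 5 markers found, 344 and 366 CPM. Of 4 neutrophil markers with enough counts 2 were higher, *S100a9* with the highest ratio of 1.19, with a sum over the 6 found of only 13.4 and 19.0 CPM and *Retnlg* as the most abundant. Of 3 B cell markers with enough counts 2 were higher, at a sum over all 4 of 3.14 and 5.45 CPM and with *Cd79b* as the most abundant.

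Other cell types differed in direction. All 5 mast cell markers lay below 0, with a median log2 ratio of -0.44 and a sum of 124 and 91.1 CPM, led by *Kit*. Of 3 eosinophil markers with enough counts, *Prg2*, the most abundant, was lower by over 1.5-fold (log2 ratio -0.69), while *Siglec5* and *Il5ra* had log2 ratios of 0.23 and 0.44 with intervals that held 0, and the sum over the 4 found was 2.13 and 1.97 CPM. All 5 blood endothelial markers lay below 0 (median -0.22, sum 1127 and 969, led by *Pecam1*), as did the 4 lymphatic markers (median -0.23, sum 147 and 126, led by *Pdpn*), the 5 stromal markers, which include *Hoxa10* and *Hoxa11* (median -0.11, sum 2583 and 2273, led by *Vim*) and the 5 smooth muscle markers (median -0.34, sum 5447 and 4362, led by *Acta2*). Of the 8 luminal epithelial markers 2 were higher and 1 lower, with a sum of 631 and 799 CPM and *Krt18* as the most abundant. Of the 6 glandular markers 2 were higher and 3 lower, *Prss28* lowest with a log2 ratio of -6.56 and *Lif* highest with 0.99, with *Prss29* as the most abundant and a sum of 895 and 127. All 5 adipocyte markers were higher, with a sum of 10.2 and 36.7 CPM, *Fabp4* as the most abundant and *Cidec* with the highest ratio, 2.19. The 2 platelet markers with enough counts had ratios of 0.12 and 0.14 (sum over all 4 of 15.6 and 17.0 CPM, led by *Itga2b*), beside 0.53 for the platelet chemokine *Pf4*. Of the erythroid markers only *Alas2* had counts, 147 and 403, and the globin genes *Hba-a1*, *Hba-a2*, *Hbb-b1* and *Hbb-b2* were at 0. The part of fat, epithelium and these other tissues in the ratios of the chemokine genes was not tested either.

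**Figure D5:**
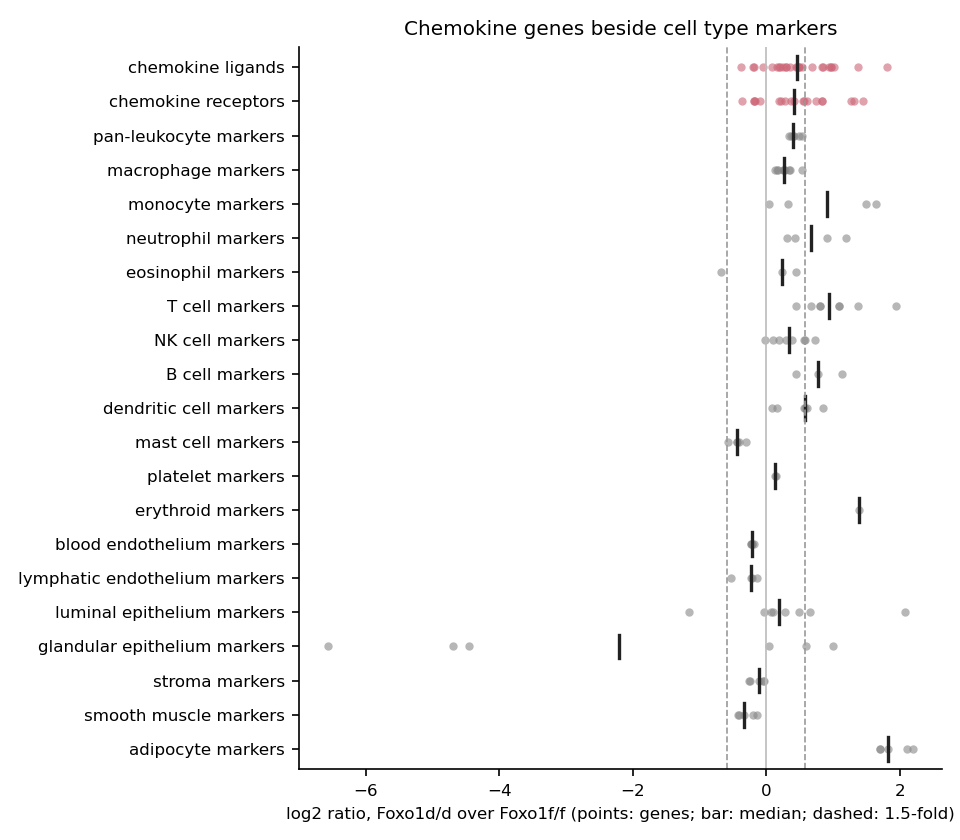
Log2 ratio (*Foxo1d/d* to *Foxo1f/f*) for measured genes, those whose mean count reached 10, among the chemokine ligands and receptors (red) and in each list of cell type markers (grey); points are genes, black bars medians and dashed lines 1.5-fold. The medians of ligands and receptors, 0.46 and 0.42, lie beside 0.40 for pan-leukocyte markers, below 0.94 for T cell markers and above -0.44 for mast cell markers.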

How the data were processed

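The authors trimmed paired reads of poly(A)-selected TruSeq libraries, aligned them with STAR to mm10 as the methods of the study state (the submitters' processing notes list mm9), and used Picard against duplicates, HTSeq for counting over RefSeq genes and edgeR for their comparison. Versions and the strand setting are not given in the sources used here. The deposited table holds the authors' mean raw count per genotype. It also holds the authors' fold change, average log2 CPM, p-value and FDR, which were not used. Times 3, 100% of the means are whole within 0.000001, and summed counts (78375043 in *Foxo1f/f*, 81773890 in *Foxo1d/d*) were obtained that way. Because there are only genotype means, no model or test across libraries was run.

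Ratios, exact intervals and lists were computed with Python 3.11.15, pandas 2.3.3, numpy 2.4.6 and SciPy 1.17.1. Lengths (61 of the 62 genes) come from GENCODE M21 transcripts paired with RefSeq, and positions (62) and promoters from RefSeq on GRCm38.p6, the assembly of mm10. Single genes named are members past 1.5-fold, the 10 most abundant members per length, their paired receptors and ligands, *Foxo1*, and in other lists the most abundant, highest and lowest; other genes named were chosen after their values were seen. The members and lists were chosen with earlier results of these data known. Alternatives were a pseudocount of 0.1, scaling to the median ratio or upper quartile, other minimum counts and other folds.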

Additional observations from a re-analysis of the deposited data

How the results depend on the processing

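The number of members higher by over 1.5-fold was 16, and 6 with a fold over 2 and 27 with a threshold of 25%, as the threshold itself sets. It was 17 with a pseudocount of 0.1, 16 with scaling to the median ratio, or to the upper quartile, 16 of 35 where the interval excludes no change, 11 of 35 with a mean count of at least 50 and 21 with no filter on low counts. The number lower by over 1.5-fold was 0, and 1 with no filter on low counts, *Ccl1* with 3 and 1 summed counts, and 2 with a threshold of 25%, *Ccl27a* and *Cxcr4*. Over all genes, 12.5% were higher and 9.0% lower with a threshold of 25%, and 6.78% and 4.85% with no filter. With a mean count of at least 50 (13856 genes) the shares were 3.81% and 2.58%. They were 8.47% and 5.42% of the 9975 genes whose interval excludes no change. With a pseudocount of 0.1 they were 5.57% and 3.61%. Scaling to the median ratio gave 5.06% and 3.79%, and to the upper quartile 5.10% and 3.75%. The median log2 ratio of members with enough counts lay between 0.43 and 0.46 under these scalings, pseudocounts and minimum counts. Of the 38 members named by the rule, 3 listed at 0 have no interval. Of the other 35, 35 stayed within their counting interval with a pseudocount of 0.1 and with the upper quartile, and 34 with the median ratio, where *Cxcl12* went to -0.22; none of these changed direction where its interval excluded 0.

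No paired analysis was possible because the deposited columns hold genotype means, and for the same reason leaving out a replicate could not be run. The depth limits the members under a mean count of 10, and no value here measures the spread between pools.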
